A study of Mus musculus with 2 samples.

Results

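The genes of ferritin and iron handling were followed in bone marrow progenitors with and without the gene of the selenocysteine tRNA. They were chosen by symbol as a list of 10, Ftl1, Fth1, Tfrc, Slc40a1, Slc11a2, Ncoa4, Ireb2, Aco1, Pcbp1 and Pcbp2, and all 10 were among the 32285 genes counted. Ftl1-ps1, a near-identical copy of Ftl1, is given beside it. Levels are counts of unique molecular identifiers (UMIs) scaled to a common total, written CPM. Ftl1 stood at 1148 CPM in the knockout library against 480 CPM in the control library, a 2.39-fold higher level. Fth1 was 1.48-fold higher, Pcbp2 was 1.62-fold higher, and the next measured member, Ireb2, was 1.29-fold higher.

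Single-cell RNA was sequenced from Lineage-, cKit+ marrow cells of the femora and tibiae of C57BL/6 mice, the fraction in which hematopoietic stem cells (HSCs) and early progenitors are found. The control library was Trsp f/f and the knockout library Trsp f/f:Mx1-Cre. Both genotypes were given pI-pC, which mimics viral RNA and switches on the interferon-driven Mx1-Cre, in 3 doses of 500 µg per mouse, and marrow was taken 9 weeks after the last dose. The design text ties the injections to 7 weeks after birth without saying clearly whether that is the age at the first dose. Mx1-Cre acts in any cell that answers interferon and not in blood cells alone, the share of cells that kept Trsp is not known here, and the cells were frozen and thawed before loading. There was 1 library per genotype, from a number of mice not given in the sources used here. No difference between them could be tested or checked against replicates. Brackets hold exact 95% intervals, which reflect counting error alone.

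Filtering left 8046 control and 6640 knockout cells, whose median depths were 20352 and 20744 UMIs, and 10 barcodes occurred in both sets. Trsp makes a tRNA and was not among the genes counted, so its own level checks nothing. Transcripts of selenoproteins differed with the labels: Gpx1 stood at 1508 CPM in control and 253 in knockout cells, and Selenow at 98.2 and 14.7. Kit, the surface receptor used in the sort, was at 98.8 and 114 CPM, and the T cell gene Cd3e had 0 and 1 UMIs. Cells fell into 22 clusters, and 13 marker classes were named, of which 8 held at least 100 cells in each library. A cluster of low UMI content, left unnamed, held 2.08% of control but 19.5% of knockout cells, at medians of 1246 and 1943 UMIs. Ftl1-ps1 was among its 10 leading genes, so values without it are given where they bear on a result.

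Cells store iron inside ferritin, a shell of heavy chains (Fth1), which oxidise iron, and light chains (Ftl1), which help lay it down as mineral. Transferrin receptor 1 (Tfrc) brings iron in with transferrin, the transporter DMT1 (Slc11a2) moves it out of the endosome, and ferroportin (Slc40a1) exports it from the cell. The chaperones Pcbp1 and Pcbp2 carry iron in the cytosol, and Ncoa4 delivers ferritin to lysosomes for iron release. The iron regulatory proteins Aco1 and Ireb2 bind hairpins called iron-responsive elements. Binding near the start of an mRNA holds back its translation, and binding in the 3′ UTR of Tfrc protects the mRNA, so a change in iron can move ferritin protein with no change in ferritin mRNA. Erythroid cells take up the most iron in marrow, for heme.

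The elements are shown because 3 of the members described most fully below, the ferritin chains and Tfrc, carry the standard form. In GENCODE M21 transcripts (mm10), the sense strand was searched for a C, 5 bases, the loop CAGTGN and 5 more bases able to pair with the first 5, G with T included. No other motif was searched. An element was found in 4 of the 10 members. It was found in 294 of 21901 protein-coding genes (1.34%), and in 565 of their 58797 transcripts (0.961%). Capitals below mark the bulged C and the loop. The places given for Tfrc elements are their order among the matches of this search.
Ftl1, 5′ UTR, chr7:45459779-45459807, minus strand: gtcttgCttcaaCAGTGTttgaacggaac
Ftl1-ps1, 5′ UTR, chr13:74406428-74406456, plus strand: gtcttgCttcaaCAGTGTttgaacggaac
Fth1, 5′ UTR, chr19:9982732-9982760, plus strand: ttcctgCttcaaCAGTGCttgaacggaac
Slc40a1, 5′ UTR, chr1:45925465-45925493, minus strand: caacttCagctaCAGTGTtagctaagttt
Tfrc, first in the 3′ UTR, chr16:32631219-32631247, plus strand: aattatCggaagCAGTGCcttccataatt
Tfrc, second in the 3′ UTR, chr16:32631598-32631626, plus strand: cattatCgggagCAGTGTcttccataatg
Tfrc, the next in the 3′ UTR, chr16:32631663-32631691, plus strand: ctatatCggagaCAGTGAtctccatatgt
Tfrc, last in the 3′ UTR, chr16:32631710-32631738, plus strand: aattatCgggaaCAGTGTttcccataatt
Ftl1 and its copy carried the same letters over the whole window. No match was found for Slc11a2, Ncoa4, Ireb2, Aco1, Pcbp1 or Pcbp2, which says only that these letters are not in the transcripts searched. The search also found none in Epas1, Cdc14a and Cdc42bpa, listed as mRNAs with an element, so it misses other forms. The data count mRNA, so what these elements do to translation was not measured.

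Ftl1 and Ftl1-ps1 cannot be separated well by counts near the transcript end. Ftl1 lies at chr7:45457944-45459884 and Ftl1-ps1 at chr13:74399694-74407346, and the annotation lists the copy as protein coding. Small annotated genes (Gm10252 and Gm22133 for Ftl1, Gm47428 and Mir692-3 for the copy) overlap both. Their transcripts were identical at 906 of 910 aligned bases (99.6%). Of 411 stretches of 90 bases within the last 500 bases of Ftl1, 225 occurred unchanged in the copy. The difference nearest to the 3′ end, in capitals, is shown because it is what a read must cover there to tell them apart.
Ftl1, 3′ end, chr7:45458081-45458109, minus strand: taggaggcctctgtAccttccaaggggct
Ftl1-ps1, 3′ end, chr13:74407153-74407181, plus strand: taggaggcctctgtGccttccaaggggct
The copy was counted almost as often as Ftl1, at 0.965 UMIs per Ftl1 UMI [0.955 to 0.974] in control and 0.934 [0.927 to 0.941] in knockout cells. How UMIs divide between both genes is therefore uncertain, and their sum is given beside Ftl1.

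Ferritin light chain showed the highest ratio of the members measured over all kept cells. Ftl1 counted 79928 UMIs in control and 158804 in knockout cells, a log2 ratio of 1.26 [1.25 to 1.27]. Ftl1-ps1 stood at 463 and 1073 CPM (log2 1.21), and the sum of both at 943 and 2221 (log2 1.24). A gene counted as measured from 20 CPM in either library and a total of 50 UMIs, and 7 of the 10 members were. Of these 7, Ftl1 and Pcbp2 passed the 1.5-fold mark over all cells and no member was lower by that much. Slc40a1, below the floor, had a log2 ratio of 0.96. Among the 6096 measured genes, 1.02% were at least 1.5-fold higher and 0.607% lower. Including Ftl1 itself, 12 measured genes had a ratio as high as that of Ftl1. Without the low-UMI cluster the log2 ratio of Ftl1 was 1.25, and with both libraries weighted to the control class shares it was 1.27.

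Among the 8 compared classes, Ftl1 was highest in monocyte progenitor-like cells in both libraries, and the classes were spread further in the knockout. Control levels ran from 302 CPM in multipotent or lymphoid-primed progenitor-like (MPP or LMPP-like) cells and 347 in HSC-like cells to 618 in monocyte progenitor-like cells. Knockout levels ran from 445 in HSC-like and 498 in megakaryocyte progenitor-like cells to 1706 in monocyte progenitor-like cells. In the control order, HSC-like and megakaryocyte progenitor-like cells did not differ beyond counting error, nor did megakaryocyte progenitor-like and basophil or mast-like cells. In the knockout order, monocyte progenitor-like, neutrophil progenitor-like (1329) and maturing neutrophil-like cells (913) stood apart from each other.

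**Figure D1:**
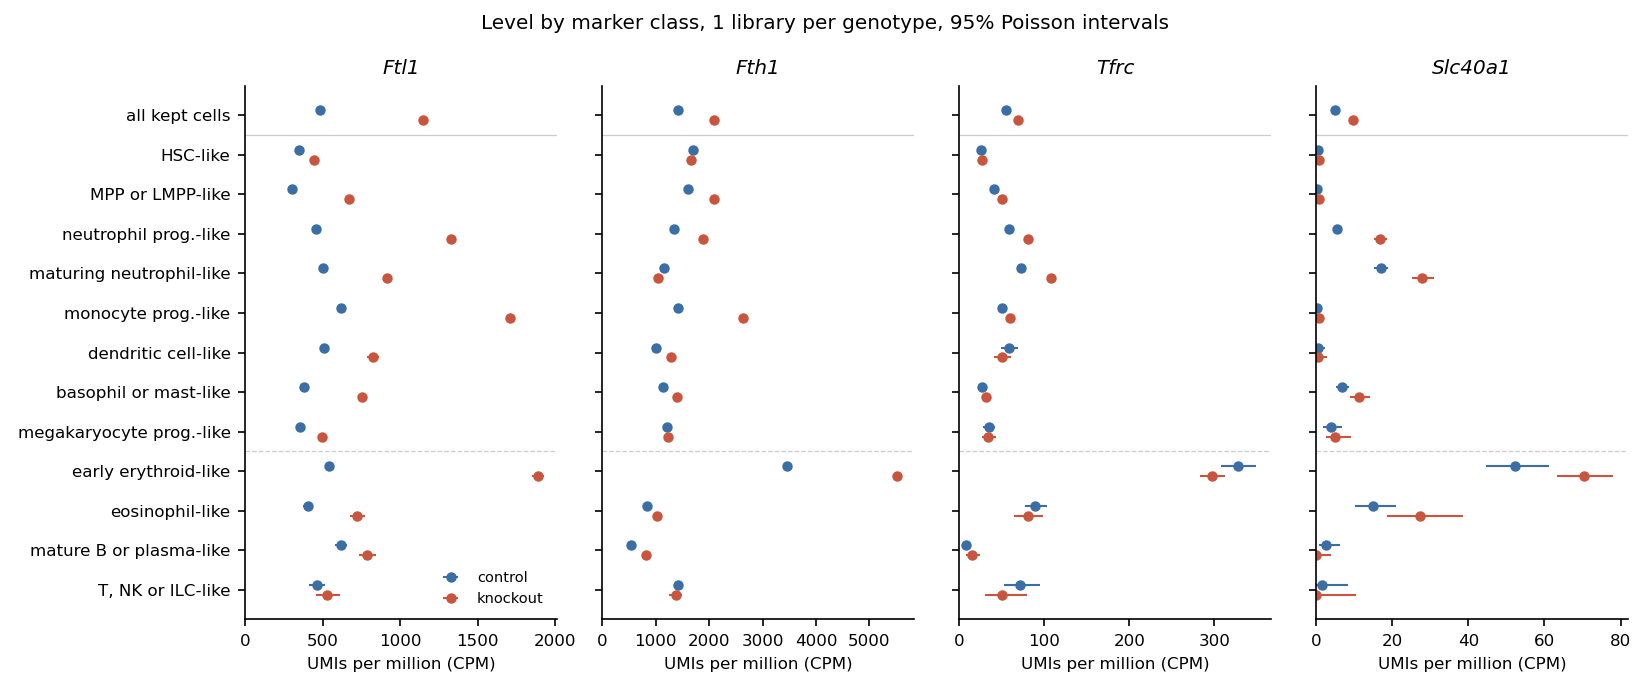
Levels of Ftl1, Fth1, Tfrc and Slc40a1 (x axes, CPM) over all kept cells and by marker class (y axis) in the control and knockout libraries. Points are sums over the cells of 1 library, and bars are 95% Poisson intervals. MPP or LMPP stands for multipotent or lymphoid-primed progenitor and ILC for innate lymphoid cell. Classes under the dashed line had fewer than 100 cells in at least 1 library. Ftl1 was higher in the knockout in every class shown, with overlapping intervals in T, NK or ILC-like cells, and Fth1, Tfrc and Slc40a1 were highest in early erythroid-like cells.

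HSC-like cells had the smallest Ftl1 ratio of the 8 compared classes. Their Ftl1 level was 347 CPM in control and 445 in knockout cells, a log2 ratio of 0.36 [0.30 to 0.42]. At clustering resolution 2 this ratio was 0.55. Megakaryocyte progenitor-like cells followed, at 351 and 498 (log2 0.51 [0.38 to 0.63]). The highest ratio was that of neutrophil progenitor-like cells, at 459 and 1329 (log2 1.53 [1.505 to 1.561]). Monocyte progenitor-like cells were close to them, at 618 and 1706 (log2 1.47 [1.45 to 1.49]). The early myeloid classes thus lay well above the stem cell class, with intervals that did not meet. MPP or LMPP-like cells, the next step after the HSC, had a log2 ratio of 1.15, with 1.51 in their cluster 7 and 0.22 in their cluster 8. Basophil or mast-like cells were at 377 and 751 (log2 0.99), maturing neutrophil-like cells at 499 and 913 (log2 0.87), and dendritic cell-like cells at 508 and 822 (log2 0.69).

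Classes too small for the comparison varied widely in Ftl1. The 82 control and 112 knockout early erythroid-like cells stood at 543 and 1889 CPM (log2 1.80 [1.72 to 1.87]). Cells like T, NK or innate lymphoid cells, 59 and 24 in number, stood at 463 and 530, and the interval of their ratio included 0 (log2 0.19 [-0.07 to 0.46]). Mature B or plasma-like cells were at 618 and 787 (log2 0.35). In the T, NK or innate lymphoid-like cells of the knockout, Ftl1-ps1 had 276 UMIs against 188 for Ftl1, a ratio of 1.47 [1.22 to 1.78]. The copy's own log2 ratio there was 0.82 [0.57 to 1.06], and both genes together stood at 905 and 1307 CPM, so the low value of Ftl1 alone depends on how UMIs were divided. In the other classes that held at least 20 cells in each library it lay between 0.880 and 1.09.

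Clusters within a class differed in the light chain ratio. MPP or LMPP-like cells held cluster 7, led by Dntt and by cell-division genes such as Cenpf and Aspm, where Ftl1 stood at 282 and 806 CPM (log2 1.51). In their cluster 8, led by Dntt and Flt3, it stood at 344 and 400.5 (log2 0.22). Cluster 7 also held more UMIs per cell, with medians of 22722 and 25994 against 13460 and 15599 in cluster 8. A like split was seen in basophil or mast-like cells, where cluster 12 had a log2 ratio of 1.41 and cluster 11 one of 0.39. Cluster 12 was again the deeper of them, at medians of 21244 and 23390 UMIs against 12852 and 15648. The part of depth or of cell division in these differences was not tested. The class value for MPP or LMPP-like cells is thus an average over clusters with unequal ratios.

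**Figure D2:**
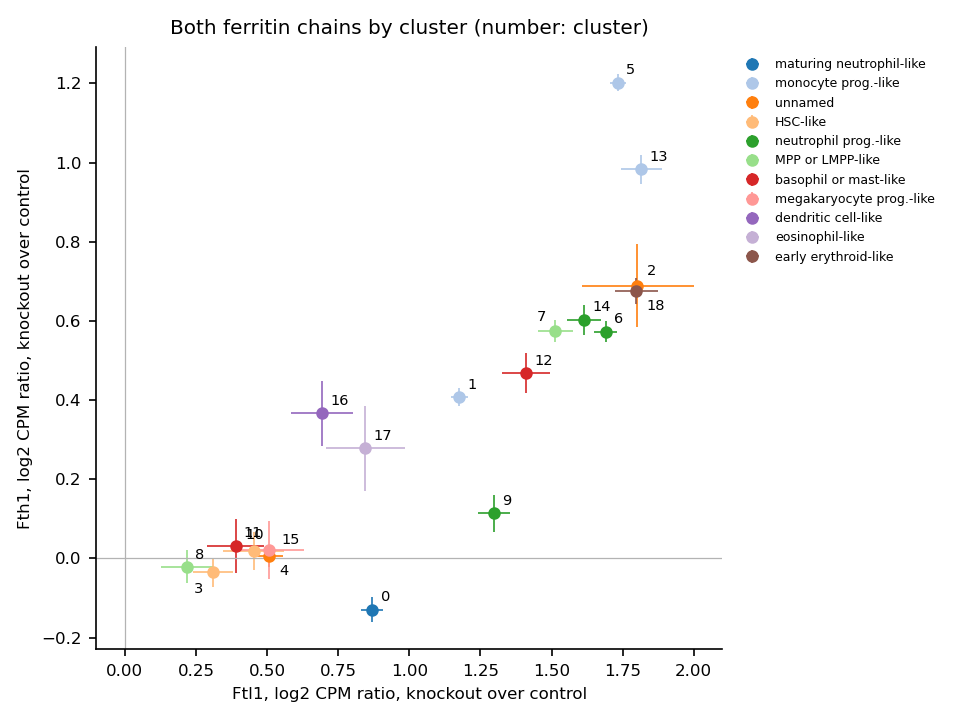
Log2 ratios (knockout over control) of Ftl1 (x axis) and Fth1 (y axis) in each cluster with at least 50 cells in each library, numbered and coloured by class, with 95% counting intervals. Clusters 3, 4, 8, 10, 11 and 15 lie near 0 for Fth1, clusters 5 and 13 of the monocyte progenitor-like class lie highest, and cluster 0, maturing neutrophil-like, has a higher Ftl1 and a lower Fth1.

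Per cell, the distribution of the light chain was displaced in most compared classes. Cells were thinned to 5000 UMIs each, so 277 shallower control cells and 1127 knockout cells did not enter. Ftl1 with its copy then had a median of 4 UMIs per control cell and 8 per knockout cell. In monocyte progenitor-like cells the medians were 6 and 15, and 66.4% of knockout cells lay above the 90th percentile of control cells. In neutrophil progenitor-like cells the medians were 4 and 12, with 74.5% of knockout cells above that level. HSC-like cells had medians of 3 and 4, and 11.2% of knockout cells lay above the control level, so most of their distributions overlapped. RNA free in the suspension can reach droplets, and its share was not measured here. Mpo, a gene of myeloid granules, gave a UMI in 93.2% of control and 91.7% of knockout T, NK or innate lymphoid-like cells. Their median depths were 11095 and 13806 UMIs. Where these Mpo UMIs came from was not tested, and detection of a UMI in a cell is not taken as expression. The Mpo level of that class was 1778 CPM in control and 183 in knockout cells, against 4957 and 4493 over all kept cells. The class thus differed in Mpo between libraries, and the part of this in its other ratios was not tested.

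**Figure D3:**
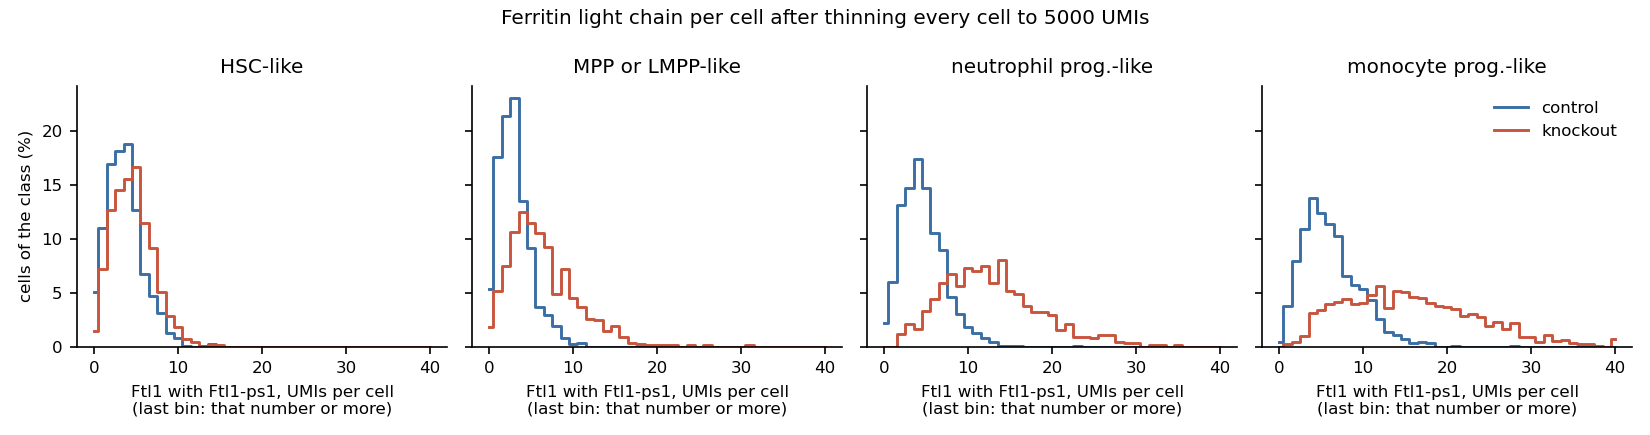
Share of cells of a class (y axis, percent) with a given number of UMIs of Ftl1 and Ftl1-ps1 together (x axis) after thinning each cell to 5000 UMIs, in the control and knockout libraries. HSC-like distributions overlap (medians 3 and 4), and those of neutrophil progenitor-like (4 and 12) and monocyte progenitor-like cells (6 and 15) lie to the right in the knockout.

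Over all kept cells and in the compared classes, ferritin heavy chain differed less than the light chain. Mature B or plasma-like cells, too few for the comparison, went the other way (Fth1 log2 0.62, Ftl1 log2 0.35). Fth1 counted 1418 CPM in control and 2101 in knockout cells, a log2 ratio of 0.57 [0.56 to 0.58], just under the 1.5-fold mark. Under a stricter filter (1000 genes, 5% mitochondrial) it passed the mark (log2 0.61), as it did over named classes alone (log2 0.61), where 1.12% of all genes were at least 1.5-fold higher. Monocyte progenitor-like cells were the compared class in which Fth1 passed, at 1423 and 2641 (log2 0.89 [0.88 to 0.91]). Their cluster 5 reached 1340 and 3082 (log2 1.20), while cluster 1 stood at 1464 and 1943 (log2 0.41). Neutrophil progenitor-like cells were at 1341 and 1881 (log2 0.49), MPP or LMPP-like cells at 1603 and 2097 (log2 0.39), dendritic cell-like cells at 1001 and 1290 (log2 0.37), and basophil or mast-like cells at 1133 and 1400 (log2 0.31).

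Stem and platelet lineage cells showed no Fth1 difference beyond counting error. HSC-like cells stood at 1691 and 1671 CPM (log2 -0.02 [-0.05 to 0.01]). Megakaryocyte progenitor-like cells stood at 1212 and 1231 (log2 0.02 [-0.05 to 0.09]). The 9 markers of that class summed to 3176 CPM in control and 1335 in knockout cells, with 0 of 9 higher, so its cells were not alike in both libraries, and the part of this in the members' values was not tested. Maturing neutrophil-like cells had a lower Fth1, at 1149 and 1050 (log2 -0.13 [-0.16 to -0.10]), while their Ftl1 was higher. That difference took the other sign with predicted doublets kept and at clustering resolution 2. HSC-like cells had the second highest control level of Fth1, below early erythroid-like cells, which stood at 3451 and 5510 (log2 0.68).

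The light chain made up more of the ferritin UMIs in the knockout. Ftl1 gave 0.339 UMIs per Fth1 UMI [0.336 to 0.341] in control and 0.547 [0.543 to 0.550] in knockout cells. Counts of 3′ ends differ in efficiency between genes, so these are not ratios of subunits, and they are compared only between libraries. With the copy counted in, the light chain made up 39.96% of ferritin UMIs in control and 51.4% in knockout cells. Maturing neutrophil-like cells had 46.3% and 62.7%, and HSC-like cells 29.4% and 35.1%. Ferritin transcripts of all 3 genes together were 0.236% of all UMIs in control and 0.432% in knockout cells, and 0.447% and 0.910% in early erythroid-like cells. Light chain share was thus higher in the knockout in every compared class, but lower in mature B or plasma-like cells (70.8% and 65.1%).

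The uptake genes Tfrc and Slc11a2 stayed under the 1.5-fold mark in all 8 compared classes. Tfrc, at chr16:32608920-32632794, stood at 54.9 and 69.6 CPM over all cells (log2 0.34 [0.30 to 0.38]). It was highest in the erythroid class, at 328 in control and 297 in knockout early erythroid-like cells (log2 -0.14 [-0.26 to -0.02]). Among compared classes it was highest in maturing neutrophil-like cells, at 72.8 and 108 (log2 0.57 [0.47 to 0.68]), a ratio that passed the mark when every cell was weighted equally (log2 0.60). Neutrophil progenitor-like cells were at 58.3 and 80.4 (log2 0.46), MPP or LMPP-like cells at 40.6 and 49.8 (log2 0.29), and monocyte progenitor-like cells at 50.1 and 59.2 (log2 0.24). The neutrophil classes thus showed the highest Tfrc ratios, where the median of all measured genes was itself at 0.10 (progenitor) and 0.12 (maturing). HSC-like cells had 25.4 and 27.0, megakaryocyte progenitor-like cells 35.0 and 34.1, basophil or mast-like cells 27.1 and 32.1, and dendritic cell-like cells 58.9 and 50.2, each with an interval of the log2 ratio that included 0. Fewer cells of a type and less RNA per cell cannot be told apart in the values over all cells.

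Slc11a2, on the minus strand at chr15:100387898-100425072 with Gm5475 opposite it, stayed below the floor of measurement over all cells, at 9.51 and 10.4 CPM (log2 0.13 [0.03 to 0.24]). It was highest in early erythroid-like cells, at 58.7 and 49.0. In the 8 compared classes its control level ran from 6.14 to 17.9 and its knockout level from 6.12 to 18.9. No compared class had an interval that excluded 0, so a difference within a class was not detectable at this depth.

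Ferroportin was rare outside a few classes. Slc40a1, at chr1:45908068-45926523, had 818 UMIs in control and 1325 in knockout cells, 4.91 and 9.58 CPM (log2 0.96 [0.84 to 1.09]), below the floor. Early erythroid-like cells stood highest, at 52.4 and 70.3 (log2 0.43). Maturing neutrophil-like cells were the compared class in which it was measured, at 16.98 and 27.9 (log2 0.72 [0.49996 to 0.93572]). That ratio was under the mark at clustering resolution 2 (log2 0.18) and with predicted doublets kept (log2 0.39). Neutrophil progenitor-like cells had 186 and 375 UMIs, 5.58 and 16.8 CPM (log2 1.59 [1.34 to 1.85]), of which their cluster 6 held 160 and 343 UMIs. Granulocyte classes therefore carried most of the gene's UMIs outside the erythroid class.

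Other compared classes held few Slc40a1 UMIs. Basophil or mast-like cells had 64 and 72, at 6.81 and 11.3 CPM (log2 0.73 [0.22 to 1.23]), and megakaryocyte progenitor-like cells 11 and 11. Monocyte progenitor-like cells had 6 and 34, MPP or LMPP-like cells 3 and 11, HSC-like cells 7 and 7, and dendritic cell-like cells 1 and 1. Macrophages of the marrow are rich in ferroportin, and their 10 listed markers summed to 16.01 CPM in control and 17.1 in knockout cells, with 8 of 10 higher in the knockout. Most of that sum was Vcam1, at 10.3 and 10.8, which cluster 0 also had among its 10 leading genes. C1qa, C1qb and C1qc, which define macrophages, had 8, 8 and 7 UMIs in control and 13, 6 and 7 in knockout cells. In maturing neutrophil-like cells the marker sum was 57.3 and 81.0 CPM with C1qb and Mertk at 0 in both libraries, and its part in the Slc40a1 difference was not tested.

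The cytosolic chaperones differed from each other. Pcbp2, at chr15:102470539-102500061, stood at 286 and 462 CPM over all cells (log2 0.69 [0.67 to 0.71]). It was higher in the knockout in all 8 compared classes, from 271 and 377 in HSC-like cells (log2 0.47) to 271 and 461 in neutrophil progenitor-like cells (log2 0.77). Megakaryocyte progenitor-like cells were at 272 and 397 (log2 0.55), basophil or mast-like cells at 275 and 415 (log2 0.60), dendritic cell-like cells at 356 and 541 (log2 0.60), MPP or LMPP-like cells at 311 and 475 (log2 0.61), monocyte progenitor-like cells at 309 and 499.9 (log2 0.69), and maturing neutrophil-like cells at 252 and 423 (log2 0.75). Unlike Ftl1, its ratio thus stayed within a narrow band in the compared classes. T, NK or innate lymphoid-like cells lay within it too, at 331 and 507 (log2 0.61 [0.32 to 0.90]). Early erythroid-like cells lay below it, at 395 and 540 (log2 0.45 [0.35 to 0.55]). The annotation places Map3k12 and Gm26518 on the other strand and Gm27406 on the same strand of the Pcbp2 locus, with the strand setting of the counting not given in the sources used here.

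Pcbp1 showed a small difference. Over all cells it stood at 335 and 390 CPM (log2 0.22 [0.20 to 0.23]). Compared classes ran from 289.6 and 286 in dendritic cell-like cells (log2 -0.02 [-0.18 to 0.14]) to 291 and 347 in maturing neutrophil-like cells (log2 0.25 [0.20 to 0.31]). HSC-like cells were at 324 and 366, MPP or LMPP-like cells at 322 and 353, neutrophil progenitor-like cells at 331 and 378, monocyte progenitor-like cells at 352 and 413, basophil or mast-like cells at 351 and 385, and megakaryocyte progenitor-like cells at 369 and 420.2. No compared class reached the 1.5-fold mark. The antisense gene 1600020E01Rik overlaps Pcbp1, at chr6:86524492-86526321.

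Ncoa4, the receptor that sends ferritin to lysosomes, stood at 95.7 and 107 CPM (log2 0.16 [0.13 to 0.19]). Among compared classes the neutrophil ones had its highest ratios, at 95.3 and 122 in progenitor-like (log2 0.36) and 102 and 132 in maturing cells (log2 0.37). HSC-like cells were at 115 and 123, MPP or LMPP-like cells at 102 and 104, monocyte progenitor-like cells at 77.4 and 83.7, basophil or mast-like cells at 136 and 159, megakaryocyte progenitor-like cells at 106 and 104, and dendritic cell-like cells at 33.3 and 32.1. Eosinophil-like cells stood highest, at 194 and 273, and early erythroid-like cells, rich in ferritin transcripts, were among the lowest, at 33.8 and 28.2. Ncoa4 thus did not follow the order of Ftl1 or Fth1 across classes.

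The iron regulatory proteins differed little. Ireb2, whose product is removed when iron is ample, stood at 28.7 and 36.9 CPM over all cells (log2 0.36 [0.31 to 0.42]). It was 20.4 and 30.6 in maturing neutrophil-like cells (log2 0.59 [0.38 to 0.79]), the compared class where it reached the mark, and it fell short of the mark under 6 alternatives, from log2 0.13 with predicted doublets kept to 0.58 with class labels from the nearest control cells. The other 7 ranged from log2 0.21 in megakaryocyte progenitor-like cells (29.5 and 34.1) to 0.40 in neutrophil progenitor-like cells (24.3 and 32.0). Between these ratios lay those of HSC-like cells at 36.0 and 42.9, MPP or LMPP-like cells at 35.0 and 44.4, monocyte progenitor-like cells at 28.8 and 36.5, basophil or mast-like cells at 34.5 and 42.1, and dendritic cell-like cells at 32.0 and 38.1. Aco1, a cytosolic aconitase that turns into an RNA-binding protein when it lacks its iron-sulfur cluster, was below the floor at 12.98 and 14.2 (log2 0.13 [0.04 to 0.22]). Its control level ran from 10.3 to 17.2 and its knockout level from 11.4 to 20.3 in the compared classes, and no interval of a class excluded 0.

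Counted by class, 15 of the 80 pairs of a member and a compared class were both measured and at least 1.5-fold apart, all higher in the knockout. Slc11a2 was measured in 0 of the 8 classes, and Slc40a1 and Aco1 in 1 each. With no floor the count was 19. Slc40a1 then joined in neutrophil progenitor-like (log2 1.59), monocyte progenitor-like (log2 2.77), MPP or LMPP-like (log2 1.63) and basophil or mast-like cells (log2 0.73). The counts by class below keep the floor. Maturing neutrophil-like cells had 4 (Ftl1, Slc40a1, Ireb2 and Pcbp2), where 2.17% of all measured genes were that much higher and 0.542% lower. Monocyte progenitor-like cells had 3 (Ftl1, Fth1 and Pcbp2), where 1.24% of genes were higher and 0.537% lower. Ftl1 and Pcbp2 made up the 2 in each of 4 further classes. The shares of all genes there were 1.11% higher and 0.921% lower in MPP or LMPP-like cells, 1.96% and 0.538% among neutrophil progenitor-like, 5.44% and 2.72% among dendritic cell-like, and 1.8% and 0.711% in basophil or mast-like cells. HSC-like and megakaryocyte progenitor-like cells had 0 members, where 0.551% and 3.21% of genes were higher and 0.488% and 2.54% lower. The members' shares were above these backgrounds in 6 of the 8 classes, with Ftl1 and Pcbp2 past the mark in each of the 6. The classes share the same 2 libraries, and the members were chosen with earlier results of these data known. The shares are therefore a description and not a test of the list. Ftl1 in basophil or mast-like cells fell short of the mark with predicted doublets kept (log2 0.56), and in megakaryocyte progenitor-like cells it passed the mark under that setting (log2 1.002) and under the stricter filter (log2 0.59). Pcbp2 fell short in MPP or LMPP-like cells under the stricter filter and with mitochondrial and ribosomal protein genes left out of the totals (log2 0.58 in both). It fell short in basophil or mast-like cells with those totals (log2 0.57) and with median-of-ratios size factors (log2 0.56). With predicted doublets kept, Pcbp2 passed the mark in megakaryocyte progenitor-like cells (log2 0.62).

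**Figure D4:**
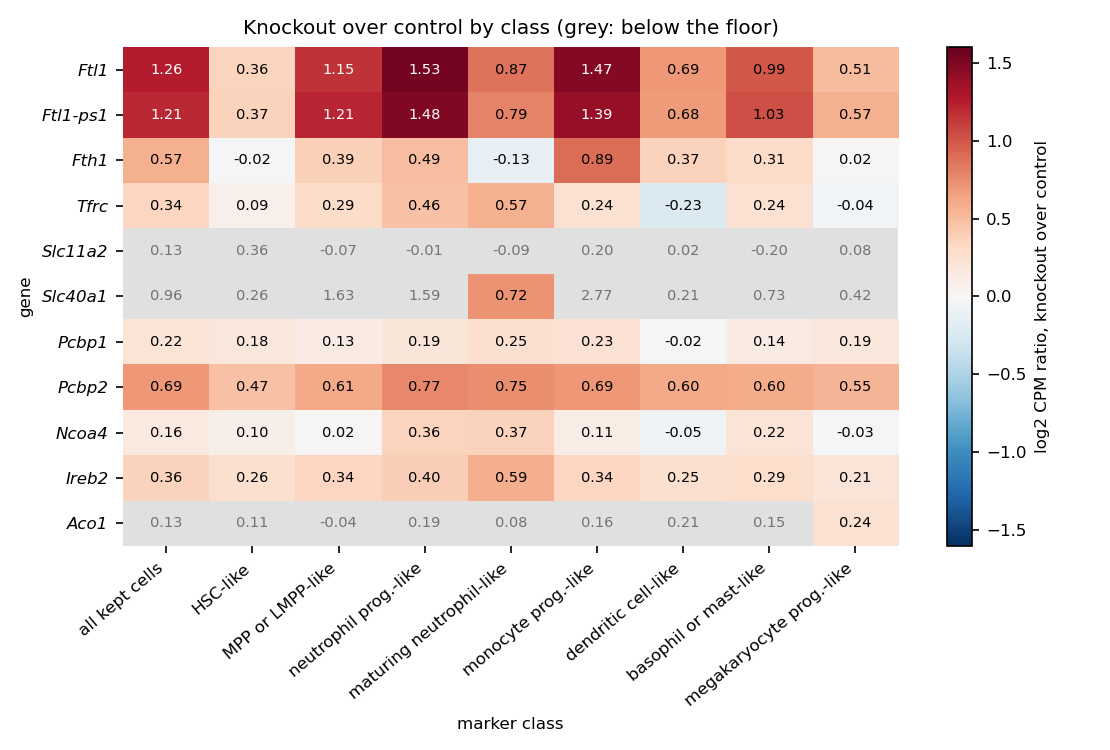
Log2 ratio of CPM (knockout over control) of each member and Ftl1-ps1 (rows) over all kept cells and in the 8 compared classes (columns). Red is higher in the knockout, blue is lower, and grey marks values below the floor of measurement. Ftl1 and its copy range from 0.36 to 1.53, Pcbp2 stays between 0.47 and 0.77, and Fth1 runs from -0.13 to 0.89.

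Other genes of iron metabolism were described from a list of 51 symbols, 50 of which were found and 25 measured over all cells. Of these 25, 1 was at least 1.5-fold higher (1.02% of all measured genes were) and 0 lower (0.607%), and their median log2 ratio was 0.05 against 0.08 for all measured genes. The gene was Blvrb, which reduces biliverdin, a product of heme breakdown, at 35.7 and 71.4 CPM (log2 1.001 [0.954 to 1.048]). Blvrb also marks early erythroid cells, whose share was 1.02% of control and 1.69% of knockout cells and whose 12 listed markers summed to 279 and 453 CPM, with 10 of 12 higher in the knockout. In early erythroid-like cells themselves Blvrb stood at 917 and 922 (log2 0.01). It was past the mark in 5 of the 8 compared classes, with 19.2 and 48.9 in monocyte progenitor-like (log2 1.35) and 11.7 and 31.2 in neutrophil progenitor-like cells (log2 1.41). HSC-like cells stood at 26.4 and 27.4 (log2 0.05). The 12 erythroid markers, Blvrb among them, summed to 32.7 and 66.2 CPM in monocyte progenitor-like and 34.8 and 59.2 in neutrophil progenitor-like cells, and their part in the Blvrb difference was not tested.

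Listed genes of iron-sulfur cluster assembly and mitochondrial iron gave 11 measured genes, none past the mark, with a median log2 ratio of 0.05. Sensing genes gave 4, all above 0 with a median of 0.20, where 68.0% of all measured genes were above 0. By class, listed genes past the mark numbered 3 higher and 1 lower of 24 in neutrophil progenitor-like cells and 2 higher of 24 in monocyte progenitor-like cells. Maturing neutrophil-like (of 23), dendritic cell-like (of 22), basophil or mast-like (of 25) and megakaryocyte progenitor-like cells (of 28) had 1 higher each, MPP or LMPP-like cells 1 higher and 1 lower of 26, and HSC-like cells 0 of 27. Set against the shares of all genes given above, 1 gene in the dendritic cell-like or the megakaryocyte progenitor-like class is near the background. Early erythroid-like cells, outside the comparison, had 2 higher and 4 lower of 28. Of the lower, 3 were listed genes of mitochondrial iron and iron-sulfur clusters. The share of all genes was not counted for that class. In the compared classes the lower genes were uptake genes, named after their values were seen. Tfr2, a second transferrin receptor, stood at 26.6 and 17.1 CPM in MPP or LMPP-like cells (log2 -0.64 [-0.86 to -0.42]). Lcn2, a carrier of iron-binding siderophores, stood at 23.7 and 13.7 CPM in neutrophil progenitor-like cells (log2 -0.79 [-0.98 to -0.59]). Slc48a1, a heme transporter named here after its values were seen, made up 1 of those in each of the first 2 classes, at 62.2 and 104 CPM in neutrophil progenitor-like cells and 48.3 and 83.1 in monocyte progenitor-like cells. Hmox1, which opens the heme ring and frees its iron, was also chosen after its values were seen. It lay below the floor, with 145 UMIs in control and 706 in knockout cells (log2 2.55 [2.29 to 2.82]), of which monocyte progenitor-like cells held 66 and 498.

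**Figure D5:**
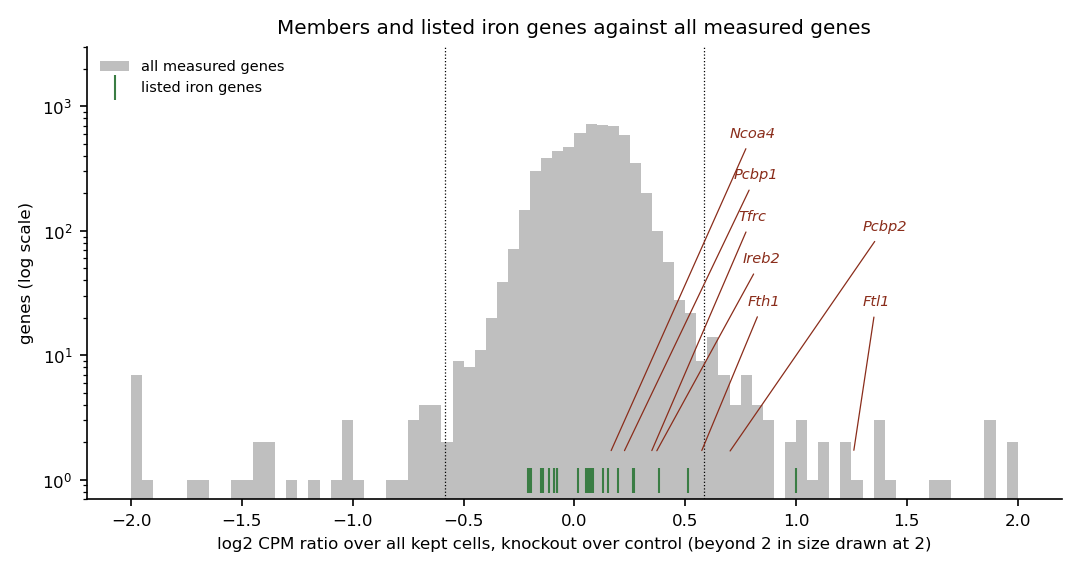
Distribution of log2 ratios (x axis, knockout over control, over all kept cells) for the 6096 measured genes (y axis, number of genes on a log scale), with the 7 measured members named and the 25 measured iron genes as ticks. Dotted lines mark 1.5-fold, and Ftl1 and Pcbp2 lie beyond the upper line with Fth1 just inside it, while all listed iron genes but Blvrb lie between the lines.

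Genes most like 4 members in level were found over 16 sums, the 8 compared classes in both libraries, among 4468 genes. These sums share libraries, and the coefficients describe them without a test. Ftl1 was most like Ftl1-ps1 (Pearson r 0.998), followed by Mfsd1 (0.876), Tex261 (0.871), Rpl10 (0.863) and Adrm1 (0.852). Fth1 was most like Slc29a1 (0.839), Rbbp7 (0.839), Eif5 (0.836), Slc39a6 (0.833) and Kpnb1 (0.806), and its r with Ftl1 was 0.446. Tfrc was most like Fcor (0.898), Clec4a2 (0.895), Baz1a (0.890), Agps (0.880) and Tcirg1 (0.875). Slc40a1 was most like Ltb4r1 (0.937), Tmbim6 (0.933), Mtf1 (0.927), Abcb10 (0.924) and Dctn1 (0.918). The lists of Ftl1 and Fth1 shared no gene. Slc40a1, Slc11a2, Ireb2 and Aco1 stayed under the level of 50 CPM required of a candidate, so they could not appear in a list.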

How the data were processed

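Raw UMI counts for every gene and barcode were deposited by the authors from 10x Chromium 3′ v3.1 libraries, made with Cell Ranger 6.1.2 and mm10, per the submitters' processing notes and the labels' protocols. Annotation release, cell calling and strand setting: not given in the sources used here. No deposited barcode held fewer than 500 UMIs, and the files held 184683653 control and 152092210 knockout UMIs. A barcode was kept if it had 500 genes or more and less than 10% of mitochondrial UMIs. Scrublet, run through scanpy 1.11.5, gave doublet scores. Its automatic thresholds were 0.433 and 0.476, and 0.433 was used for both, which removed 146 control and 66 knockout cells. Both libraries were clustered together with Leiden (leidenalg 0.10.2, resolution 1, 30 components, 15 neighbours) without integration and without the members, the other listed iron genes, or genes that are sex-linked, mitochondrial, ribosomal or code for selenoproteins. A cluster took a class name from at least 2 markers among its 25 leading genes, otherwise by mean marker level, as clusters 7 and 14 did. A name needed 3 detected markers, and rebuilt names can differ from the study's. Unnamed were the low-UMI cluster 2 and cluster 4.

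UMIs were summed over the cells of a class and scaled by that class's total to CPM. No test was possible with 1 library in each group, and 1.5-fold is a mark of size. Ratios have exact conditional binomial and levels exact Poisson intervals at 95%. The ratio and interval code was tested on simulated counts. By rule all members were named, and other iron genes where at least 1.5-fold apart over all kept cells. Slc48a1, Hmox1, Tfr2 and Lcn2 fall outside it and were chosen after their values were seen. For likeness, log2(CPM + 10) was correlated among genes reaching 50 CPM in 1 sum. Members and gene lists were chosen with earlier results of these data known, and the naming thresholds were set after the data were seen.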

Additional observations from a re-analysis of the deposited data

Results flagged for a closer look

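Ftl1 was also higher in the barcodes that the filters left out, 6180 in the control and 4850 in the knockout library, which entered no comparison. It stood there at 176 and 427 CPM, a log2 ratio of 1.28 [1.21 to 1.35], close to the 1.26 of kept cells, and both levels were lower than those of kept cells. These barcodes have few genes or many mitochondrial UMIs, and what they hold was not tested. Predicted doublets passed these filters and are not among them.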

How the results depend on the processing

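Over all kept cells, 2 of the 7 measured members were at least 1.5-fold apart, and the alternatives gave 2 or 3. With no floor the count was 3, as Slc40a1 (log2 0.96) then entered. The 15 pairs of a member and a compared class became 11 to 20. The lowest count came under the stricter filter (1000 genes, 5% mitochondrial), and the highest with classes of at least 75 cells, an alternative chosen after seeing the data, as was summing named classes only. The count of listed iron genes was 1, and it became 2 with mitochondrial and ribosomal protein genes left out of the totals, 9 with no floor and 0 with a floor of 100 CPM, where fewer genes are tested. Of 800 log2 ratios under alternatives, 690 stayed within the spread of counting error and 110 moved, and 0 of the called ratios took the other sign. Over all kept cells, Ftl1 ranged from 1.17 to 1.29 and Fth1 from 0.47 to 0.61. Ratios within classes also moved with predicted doublets kept, which changed the clusters. The log2 ratio of Ftl1 in megakaryocyte progenitor-like cells then went from 0.51 to 1.002. No paired analysis was possible because each genotype has 1 library. Depth limits Slc40a1, Slc11a2 and Aco1, which stayed under 20 CPM over all cells, and intervals cover counting error only.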
